A study of Homo sapiens with 10 samples.

Results

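The A347S mutant of KLF11 was set against empty vector in Panc1, an established human epithelial line derived from a pancreatic carcinoma. The 4 arrays of this comparison, 2 with A347S and 2 with empty vector, are part of a series of 10 arrays, which also holds 2 each with wild type KLF11, the Δ486 mutant and the EAPP mutant. They were chosen by the transduction label alone, and every transcript cluster with a gene symbol was kept, which is 20961 of the 28869 on the array. A transcript cluster is the unit that the array assigns to 1 gene or stretch of transcript.

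Every culture, empty vector included, received an adenovirus at a multiplicity of infection of 150 and was harvested for RNA 48 h later. The mutants carry an epitope tag and are made in addition to the KLF11 of the cells themselves, so that every group keeps the endogenous gene. A347S replaces an alanine by a serine in the proline-rich region of KLF11, and the study uses it to uncouple KLF11 from proteins with WD40 repeats. Δ486 ends the protein early, to part it from HP1 and histone methyltransferases, and EAPP changes the N-terminal domain that binds SIN3 and, through it, histone deacetylases. By the extraction notes, the RNA was pooled from separate cultures and hybridized as technical duplicates, whereas the sample titles number the arrays as biological replicates. Errors and p-values therefore measure the spread between arrays.

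KLF11 belongs to the Krüppel-like factors, which bind GC-rich promoter DNA through C-terminal zinc fingers and lower or raise transcription according to the chromatin proteins they recruit. It is known in the pancreas from the control of insulin transcription, and in epithelial cells from the response to TGF-beta. WD40 proteins fold into a propeller that serves as a platform for other proteins. They include G protein beta subunits, corepressors of the TLE family and subunits of chromatin complexes.

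KLF11 itself read 8.85 and 8.88 on the A347S arrays and 8.37 and 7.75 on the empty vector arrays, as log2 expression normalized by the authors. Both A347S arrays lay above both empty vector arrays, but the empty vector arrays stood further apart from each other than the A347S arrays did. The change was 0.81 (standard error 0.16, adjusted p = 0.00398 by limma). Leaving out the second empty vector array gave 0.50, short of the fold threshold, and leaving out the first gave 1.12. The values with wild type KLF11, Δ486 and EAPP were 8.82 and 8.85, 8.72 and 8.83, and 8.78 and 8.68, and the direct differences of A347S from them were 0.03, 0.10 and 0.14 (adjusted p = 0.949, 0.912 and 0.625). Which share of this signal comes from the transduced copy was not tested.

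A347S changed 1882 clusters, or 8.98% of those tested, with 761 higher and 1121 lower than in empty vector. Changes are log2 differences from a linear model over all 10 arrays, and the words rise and fall are kept for clusters with a fold change of at least 1.5 and a p under 0.05 after Benjamini-Hochberg adjustment. Rises make up 3.63% and falls 5.35% of all clusters. These shares are set beside groups of genes below, but the share called differs with signal, as the next paragraph shows. Without the fold threshold, 28.4% passed. A plain t-test of the 2 A347S arrays against the 2 empty vector arrays, which leaves out the Bayes correction that the methods describe, gave 1739 calls with the fold threshold before Benjamini-Hochberg adjustment and 0 after it, whereas the linear model over all 10 arrays without moderation of the variances gave 1798 after it. In all 1882 the arrays of the groups did not overlap, which was also so in 63.6% of all clusters. Where the arrays of a called gene are said below to be separate, this describes the gene and adds no support to its call. The rises were fewer but reached further: 20 rises and 1 fall were 4-fold or more, while 211 rises and 158 falls were 2-fold or more. In bulk RNA, a change in the number of cells with a transcript and a change in its amount per cell cannot be told apart.

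The balance of rises and falls moved with the signal of the cluster and with the scaling between arrays. Among clusters with a mean signal between 5 and 6 over all arrays, 2.32% rose and 0.687% fell, and between 8 and 9, 6.09% rose and 12.2% fell. The median change in these classes was 0.06 and -0.10, while over all clusters it was 0.01. Between 7 and 8, 4.35% rose and 9.32% fell, and between 9 and 10, 6.56% rose and 10.2% fell. Gene lists with median signals in such ranges are better read beside these shares than beside those over all clusters. All lists were drawn up with earlier results of these data known and hold several of the largest changes. Their shares are therefore counts and do not test a pathway. After cyclic loess scaling, which evens out such trends, 936 clusters rose and 849 fell, so that rises made up 52.4% of the calls, against 40.4% in the deposited values. With quantile scaling 893 rose and 877 fell.

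**Figure D1:**
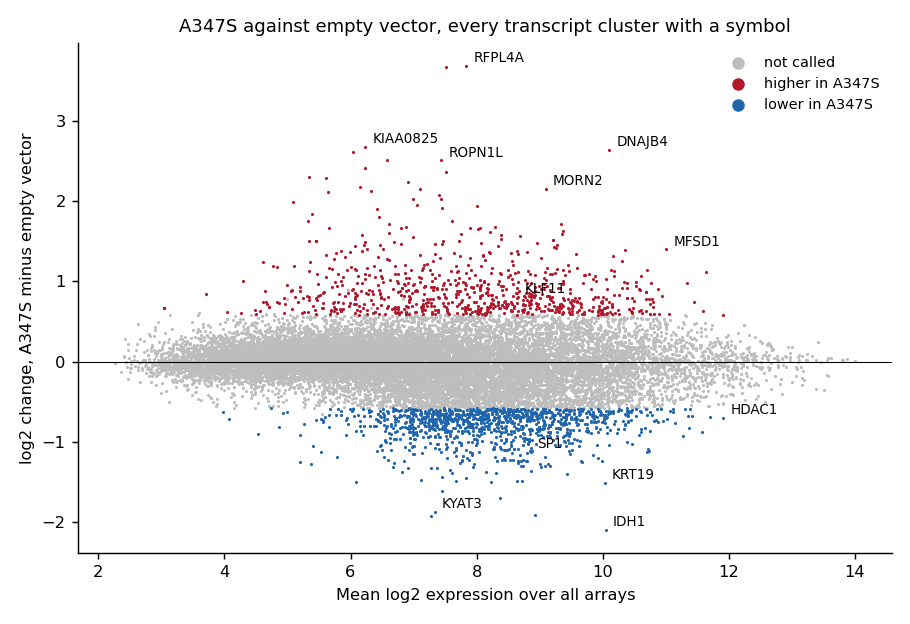
Change in A347S relative to empty vector (log2, vertical axis) against the mean signal over all 10 arrays (log2, horizontal axis) for each of the 20961 transcript clusters, with the 761 that rose in red, the 1121 that fell in blue and the rest in grey. The rises reach 3.69 (RFPL4A) and the falls -2.10 (IDH1), and the blue points lie mostly at middle to high signal.

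RFPL4A, known from oocytes and carrying a RING finger, rose most. It read 9.21 and 9.31 with A347S, against 5.49 and 5.65 with empty vector, a change of 3.69 (standard error 0.19, adjusted p = 1.09e-05), or 12.9-fold. The 2 clusters of this gene gave 3.69 and 3.68, but near-identical copies of the gene can share its probes. KIAA0825, a gene linked to digit development, read 7.32 and 7.33 with A347S and 4.63 and 4.66 with empty vector, 6.41-fold higher. Its 3 clusters changed by 2.68, 2.62 and 1.35.

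Several of the largest rises were genes of the ciliary or flagellar axoneme. ROPN1L, a protein of the sperm flagellum, read 8.38 and 8.55 with A347S and 5.81 and 6.10 with empty vector. SAXO2, which stabilizes ciliary microtubules, read 7.35 and 7.29 with A347S and 4.57 and 5.24 with empty vector, and CFAP43, needed for flagella to form, 6.56 and 6.56 with A347S and 4.17 and 4.37 with empty vector. The A347S arrays of these 3 genes lay far above the empty vector arrays, although the empty vector arrays of SAXO2 also stood apart from each other. The other genes among the 10 largest rises were DNAJB4, RADX, LMBRD2, ZNF204P and HMGN5, with changes of 2.64, 2.52, 2.37, 2.30 and 2.25. The empty vector means of ZNF204P and CFAP43, 4.08 and 4.27, lay below 4.4, the median of the olfactory receptor genes, so that the sizes of their changes are uncertain. RADX binds single-stranded DNA at replication forks, and HMGN5 binds nucleosomes and loosens chromatin.

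Among clusters with a mean signal of at least 9, DNAJB4 led the rises. This co-chaperone, which guides HSP70 to unfolded proteins, read 11.15 and 11.23 with A347S, against 8.51 and 8.58 with empty vector (2.64, standard error 0.13, adjusted p = 9.16e-06). SAMHD1, which breaks down deoxynucleotides, read 10.03 and 10.16 with A347S and 8.52 and 8.40 with empty vector. ARRDC3, an arrestin-like adaptor that directs receptors to lysosomes, read 10 and 10.03 with A347S and 8.55 and 8.31 with empty vector. In each of the 3 both A347S arrays lay above both empty vector arrays. The others of these 10 were MORN2 (2.16), RIDA, a deaminase that clears reactive enamines (1.72), TNFRSF10D, a decoy receptor for TRAIL (1.46), SHQ1, an assembly factor of small nucleolar ribonucleoproteins (1.43), the splicing factor SLU7 (1.42), the lysosomal transporter MFSD1 (1.40) and EMC3, which inserts proteins into the ER membrane (1.39).

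The largest fall was that of IDH1, the cytosolic isocitrate dehydrogenase that makes NADPH and 2-oxoglutarate. It read 9.21 and 8.99 with A347S and 11.21 and 11.19 with empty vector, a change of -2.10 (standard error 0.08, adjusted p = 5.99e-06), or 4.28-fold lower. SFXN2, a mitochondrial sideroflexin, read 6.39 and 6.21 with A347S and 8.25 and 8.20 with empty vector, and KYAT3, an aminotransferase of the kynurenine pathway, 6.58 and 6.55 with A347S and 8.50 and 8.38 with empty vector. No array of one group came near the other group in any of the 3. PIMREG, a regulator of the metaphase to anaphase transition, read 7.62 and 7.37 with A347S and 9.20 and 9.20 with empty vector.

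The remaining 6 of the 10 largest falls were TPMT, which methylates thiopurines (-1.61), KRT19, a keratin of ductal epithelium (-1.51), KGD4, which belongs to the 2-oxoglutarate dehydrogenase complex (-1.50), DDIT4, an inhibitor of TOR signalling (-1.50), ANKRD50, which takes part in endosomal recycling (-1.49), and CDK5RAP3 of the UFM1 ligase complex (-1.49). Among clusters with a mean signal of at least 9, IDH1 and KRT19 were followed by CNDP2, a cytosolic dipeptidase (-1.40), ADI1, an enzyme of methionine salvage (-1.32), ALDH1B1, a mitochondrial aldehyde dehydrogenase (-1.30), and TOB1, which restrains proliferation (-1.30). POLR2G, a subunit of RNA polymerase II (-1.28), PJA2, a ubiquitin ligase that acts on protein kinase A (-1.28), ATP6AP1, an accessory subunit of the vacuolar proton pump (-1.25), and RCN2, a calcium-binding protein of the ER (-1.24), completed the 10.

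**Figure D2:**
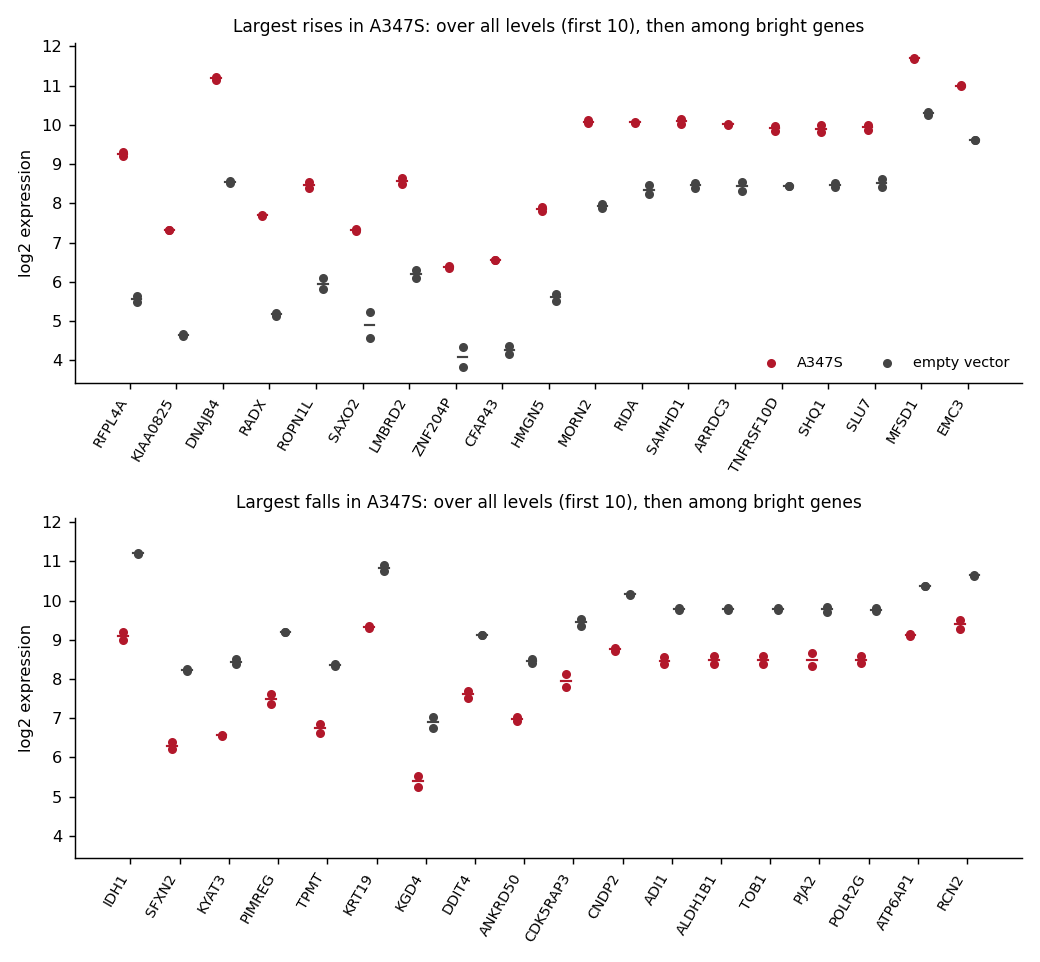
Log2 expression on each A347S array (red, left of each pair) and each empty vector array (grey, right) for the 10 largest rises and the 10 largest falls, each followed by those among clusters with a mean signal of at least 9 that are not already shown, where points are arrays and short lines their means. The A347S arrays and the empty vector arrays do not overlap in any gene shown, which was a condition of the choice.

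Promoter letters were read for the genes of this comparison because KLF11 binds the motifs CCCCGC and CCCCAC. RefSeq promoters of build GRCh38 matched 14210 of the 18377 genes with a cluster of 1 symbol, and the 250 bases before the start site were searched on both strands, with overlapping matches counted. The motifs share their first 4 letters and cannot match at the same place on 1 strand. CCCCGC was present in 42.5% of the promoters of genes that rose, in 77.0% of those of genes that fell and in 52.8% of all. For CCCCAC these shares were 25.6%, 38.9% and 32.9%.

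The promoters of genes that fell were richer in G and C, with a median GC content of 70.4%, against 59.6% for genes that rose and 62.8% for all. Within promoters of 55% to 65% GC, CCCCGC was present in 40.9% for genes that rose, 57.4% for genes that fell and 46.5% for all. From 65% to 75% GC the shares in the same order were 69.0%, 87.2% and 78.5%. In the outer classes the genes that rose held it at least as often as those that fell: below 55% GC the shares were 20.5%, 18.3% and 12.2%, and from 75% GC they were 100.0%, 96.6% and 95.4%, with 16 genes that rose in the last class. Among genes with a mean signal of at least 7, whatever their GC, the shares were 42.5%, 77.4% and 64.1%. GGGCGG, the GC box of SP factors, which can overlap CCCCGC read on the other strand, was present in 52.1% of rising, 80.3% of falling and 57.5% of all promoters. These matches describe letters, not sites at which a protein was seen.

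The promoters of 2 of the largest rises and 3 of the largest falls are shown, since they span the range from no match to 4 matches. The capitals mark CCCCGC on either strand. RFPL4A (plus strand, chr19:55758847-55759096), DNAJB4 (plus strand, chr1:77978925-77979174), IDH1 (minus strand, chr2:208254459-208254708), KYAT3 (minus strand, chr1:88992630-88992879) and TPMT (minus strand, chr6:18155170-18155419) are given 5′ to 3′ up to the base before the start site, and for DNAJB4, IDH1 and TPMT, which have 2 entries each, the first is used.
RFPL4A: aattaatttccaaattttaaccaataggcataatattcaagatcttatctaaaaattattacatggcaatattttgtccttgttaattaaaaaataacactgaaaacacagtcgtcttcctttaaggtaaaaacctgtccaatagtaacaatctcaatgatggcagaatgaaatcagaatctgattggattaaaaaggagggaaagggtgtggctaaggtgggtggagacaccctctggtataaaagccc
DNAJB4: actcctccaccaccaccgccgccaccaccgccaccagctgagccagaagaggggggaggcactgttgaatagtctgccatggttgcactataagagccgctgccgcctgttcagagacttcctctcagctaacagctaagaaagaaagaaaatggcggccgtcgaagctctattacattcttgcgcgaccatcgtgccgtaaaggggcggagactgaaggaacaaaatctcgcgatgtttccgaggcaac
IDH1: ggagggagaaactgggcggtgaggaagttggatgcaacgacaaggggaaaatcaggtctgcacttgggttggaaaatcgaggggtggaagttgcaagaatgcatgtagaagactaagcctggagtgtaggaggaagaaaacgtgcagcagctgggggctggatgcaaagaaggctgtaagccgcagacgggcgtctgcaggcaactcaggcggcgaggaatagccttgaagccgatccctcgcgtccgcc
KYAT3: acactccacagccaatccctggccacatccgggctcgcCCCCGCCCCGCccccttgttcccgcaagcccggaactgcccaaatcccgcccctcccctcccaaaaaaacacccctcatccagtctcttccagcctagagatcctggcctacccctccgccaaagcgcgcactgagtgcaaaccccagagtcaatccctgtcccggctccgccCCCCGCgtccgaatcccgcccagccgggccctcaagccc
TPMT: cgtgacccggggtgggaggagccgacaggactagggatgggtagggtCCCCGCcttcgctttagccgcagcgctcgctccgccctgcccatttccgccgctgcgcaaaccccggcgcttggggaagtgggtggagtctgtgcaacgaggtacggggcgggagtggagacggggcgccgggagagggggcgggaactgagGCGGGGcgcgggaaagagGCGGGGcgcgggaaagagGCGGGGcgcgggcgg
RFPL4A, DNAJB4 and IDH1 held no match to either motif, KYAT3 held 3 matches to CCCCGC and TPMT held 4. The largest rise and the largest fall of the comparison thus both lacked the motif in this window. The promoters shown do not stand for the largest rises or falls as groups. Among the other large rises, ROPN1L, SAXO2 and LMBRD2 held 2 matches each to CCCCGC, CFAP43 and HMGN5 held 1 each, and KIAA0825 held none. Among the other large falls, SFXN2, KGD4 and DDIT4 held 1 each, and CDK5RAP3 held none. RADX, ZNF204P, PIMREG, KRT19 and ANKRD50 had no matched promoter.

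Of the transcription factors of the KLF and SP families, which bind similar GC-rich sites, 25 were measured, and 1 rose and 7 fell. Shares of 4% and 28% stand beside 3.63% and 5.35% over all clusters, and the median change was -0.06, against 0.01 over all. SP1, a broadly used activator of housekeeping genes, read 8.58 and 8.10 with A347S and 9.52 and 9.40 with empty vector, a fall of 1.12 (standard error 0.14). KLF10, the closest relative of KLF11 and likewise induced by TGF-beta, read 7.63 and 7.63 with A347S and 8.48 and 8.52 with empty vector, and KLF6, a tumour suppressor, 7.53 and 7.43 with A347S and 8.25 and 8.44 with empty vector. The arrays did not overlap in any of these. KLF12 and SP4 fell by 0.72 and 0.69, and the remaining pair, KLF13 and KLF16, which were named after their values were seen, by 0.63 and 0.65. A dimmer cluster of KLF13 stood at 0 (adjusted p = 0.993), and without the second A347S array KLF13 stood at -0.41. KLF13 and KLF16 both lost their calls without that array and under cyclic loess or quantile scaling. KLF11, the transduced gene, was the 1 member that rose, so that the share of 4% describes no other member of these families. After cyclic loess scaling 1 rose and 5 fell.

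Among the partners through which KLF11 acts, the SIN3-HDAC complex had 2 rises and 3 falls in 15 measured members. HDAC1, a histone deacetylase, read 11.61 and 11.54 with A347S and 12.28 and 12.27 with empty vector, and SIN3A, the scaffold of the complex, 7.89 and 7.70 with A347S and 8.62 and 8.64 with empty vector. Both were lower on every A347S array, as was ING2, the subunit that reads methylated lysine 4 of histone H3 (-0.98). The rises were BRMS1 (0.67) and SAP18 (0.60), subunits of the same complex, and SAP18 lost its call without the first empty vector array. The paralogs HDAC2 and SIN3B stood at -0.08 and -0.11 and did not pass.

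Of 15 measured genes of HP1 and of methylation at lysine 9 of histone H3, 0 rose and 2 fell, with a median of -0.27. These were MPHOSPH8, a chromodomain protein of the HUSH silencing complex, at 7.88 and 7.77 with A347S and 8.78 and 8.74 with empty vector, and EHMT2, a methyltransferase for this residue (-0.72). The 13.3% that fell lay near the 12.2% over all clusters with a mean signal between 8 and 9. The HP1 genes CBX1, CBX3 and CBX5 stood at -0.13, -0.27 and -0.07. WD40 repeat proteins, the class from which the mutation is meant to part KLF11, had 3 rises and 2 falls in 22 measured members. Shares of 13.6% and 9.1% stand beside 6.09% and 12.2% over all clusters with a mean signal between 8 and 9. TLE4, a corepressor of the Groucho family, read 7.20 and 7.30 with A347S and 5.58 and 5.72 with empty vector, a rise of 1.60. RBBP5, a subunit of histone H3 lysine 4 methyltransferase complexes, and FBXW7, which selects proteins for degradation, rose by 0.97 and 0.73, FBXW7 not without the second A347S array. GNB1, a G protein beta subunit, and DDB2, which finds ultraviolet damage in DNA, fell by 0.59 and 0.62, calls that were lost after cyclic loess or quantile scaling and without the second A347S array (GNB1 also after median centring and DDB2 without the second empty vector array), while the beta subunit GNB2 stood at -0.21 (adjusted p = 0.063). Of 13 measured genes of histone acetyltransferases and their complexes, 0 rose and 3 fell. These were the acetyltransferases KAT6B (-0.83) and KAT2B (-0.75) and the adaptor subunit TADA3 (-0.67). KAT6B and KAT2B also passed after cyclic loess and quantile scaling, and TADA3 did not.

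The list around pyruvate entry and the tricarboxylic acid cycle had 8 falls and 1 rise in 31 measured members, with a median of -0.25. It was drawn up with earlier results known, and it counts KGD4 and the cytosolic IDH1, which are among the 10 largest falls. MPC1, a subunit of the carrier that brings pyruvate into mitochondria, read 7.02 and 7.04 with A347S and 8.48 and 8.46 with empty vector, 2.71-fold lower. PDP1, the phosphatase that switches pyruvate dehydrogenase on, read 6.85 and 6.67 with A347S and 8.10 and 8.08 with empty vector. KGD4 read 5.54 and 5.26 with A347S and 6.76 and 7.03 with empty vector, and IDH2, the mitochondrial NADP-dependent isocitrate dehydrogenase, 9.20 and 9.06 with A347S and 10.12 and 10.10 with empty vector. The fall thus included both NADP-dependent isocitrate dehydrogenases, whereas the subunits IDH3A, IDH3B and IDH3G of the NAD-dependent enzyme stood at 0.31, 0.18 and -0.41 and did not reach the fold threshold. SUCLG1, a subunit of succinyl-CoA ligase, was the 1 member that rose, at 10.25 and 10.25 with A347S against 9.35 and 9.35 with empty vector.

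The respiratory chain, into which the cycle delivers its electrons, had 1 rise and 0 falls in 42 measured members. This was NDUFA5, a subunit of complex I (1.13), and the median of the list was 0.15. Mitochondrial carriers and sideroflexins moved both ways, with 3 rises and 4 falls in 32. These shares, 9.4% and 12.5%, stand beside 6.09% and 12.2% over all clusters with a mean signal between 8 and 9. SFXN2 led the falls, followed by UCP2, an uncoupling protein homologue (-1.18), the pyrimidine nucleotide carrier SLC25A33 (-0.79) and SFXN4 (-0.62). SFXN4 lost its call under cyclic loess or quantile scaling and without the first empty vector array or the second A347S array. SLC25A14, a further member of the uncoupling family, rose by 1.13, and SLC25A44, a carrier of branched-chain amino acids, by 0.59, though not without the second array of A347S or of empty vector.

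In a list built around the breakdown of amino acids and propionate, 10 of 28 measured genes fell and 1 rose. KYAT3 had the largest fall. IVD, which oxidizes isovaleryl-CoA from leucine, read 7.64 and 7.65 with A347S and 9.03 and 9.05 with empty vector, and BCAT2, the mitochondrial aminotransferase of branched-chain amino acids, 7.21 and 7.14 with A347S and 8.45 and 8.44 with empty vector. The A347S arrays lay below the empty vector arrays in both genes. BDH1, which interconverts ketone bodies (-0.98), GATM, the first enzyme of creatine synthesis (-0.94), and MMUT, methylmalonyl-CoA mutase (-0.88), fell as well, and the remaining 4 falls ran from BCKDHB (-0.84) and PCCB (-0.83) to HIBADH (-0.71) and PCCA (-0.70), which were named after their values were seen. PCCA lost its call without the second A347S array. MCEE, the epimerase that acts just before MMUT, was the 1 member that rose, by 0.78.

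Fatty acid and triglyceride synthesis had 11 falls and 2 rises in 26 measured members, with a median of -0.30. ELOVL1, which lengthens long saturated fatty acids, read 8.11 and 8.0 with A347S and 9.58 and 9.51 with empty vector (-1.49, standard error 0.07, adjusted p = 9.16e-06). LPIN1, the phosphatase that makes diacylglycerol, read 8.32 and 8.25 with A347S and 9.49 and 9.55 with empty vector, and FASN, the fatty acid synthase, 8.34 and 8.31 with A347S and 9.39 and 9.30 with empty vector. All 3 were about a log2 unit or more lower on both A347S arrays. SLC25A1, the citrate carrier, MID1IP1, which activates acetyl-CoA carboxylase, and FADS2, a desaturase, fell by 1.16, 1.0 and 0.88. The remaining 5 falls ran from ACACA (-0.76), CHKA (-0.74) and SCD (-0.70) to ELOVL6 (-0.66) and AGPAT2 (-0.62). These and the 2 rises, GPAM (0.88), which starts glycerolipid synthesis, and the elongase ELOVL7 (0.75), were named after their values were seen. AGPAT2 lost its call under cyclic loess or quantile scaling, and ELOVL6 without the second empty vector array.

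In cholesterol synthesis and its SREBP regulators, 5 of 21 measured members fell and 0 rose, and each of the 21 had a change below 0. LSS, which closes the sterol rings, read 8.09 and 7.78 with A347S and 9.18 and 9.10 with empty vector, and DHCR7, which makes the last step to cholesterol, 9.91 and 9.80 with A347S and 10.81 and 10.90 with empty vector. TM7SF2, INSIG1, which holds SREBP in the ER, and STARD4, a sterol carrier, fell by 0.78, 0.77 and 0.72, STARD4 not without the second A347S array. SREBF1 and SREBF2, the SREBP genes, stood at -0.57 and -0.43, short of the fold threshold. The median of -0.34 was -0.27 after cyclic loess scaling, with the count of falls still 5.

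Fatty acid oxidation had 6 falls and 2 rises in 22 measured members. HSD17B4, an enzyme of peroxisomal beta-oxidation, read 8.25 and 8.28 with A347S and 9.66 and 9.62 with empty vector, and CPT1A, which controls the entry of fatty acids into mitochondria, 9.04 and 8.86 with A347S and 10.10 and 10.04 with empty vector. SLC25A20, the carnitine carrier, and catalase (CAT) fell by 0.85 and 0.83. SLC27A2, an acyl-CoA synthetase and fatty acid transporter, and ETFDH, which passes electrons to ubiquinone, rose by 0.93 and 0.65. Glycolysis had 4 falls and 0 rises in 21, namely the glucose transporter SLC2A1 (-1.25), ALDOC (-0.82), PFKL (-0.78) and HK1 (-0.60), while LDHA stood at 0.11. HK1 no longer passed after cyclic loess or quantile scaling, or when the second array of A347S or of empty vector was left out.

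**Figure D3:**
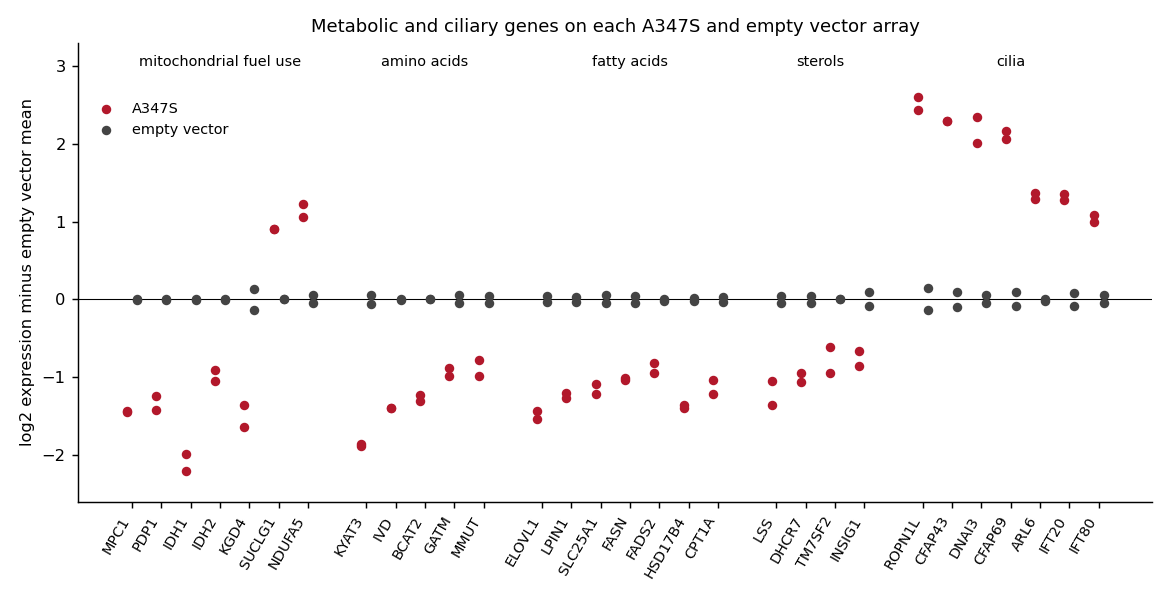
Log2 expression on each A347S array (red, left) and each empty vector array (grey, right) minus the empty vector mean of the gene. The genes are a choice from the metabolic and ciliary genes named in the text, so their common direction describes the choice. Of the metabolic genes shown, all but SUCLG1 and NDUFA5 lie lower on the A347S arrays, and the ciliary genes shown lie higher. Not shown are the metabolic rises GPAM, ELOVL7, SLC27A2, ETFDH and MCEE, and ciliary genes that did not pass, such as DNAH5, DNAH9 and RFX3.

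The hypoxia response had 11 falls and 1 rise in 24 measured members, with a median of -0.37. DDIT4, which hypoxia and other stresses induce, read 7.70 and 7.52 with A347S and 9.11 and 9.11 with empty vector. BNIP3, a receptor for mitophagy, read 9.20 and 9.12 with A347S and 10.22 and 10.20 with empty vector, and ERO1A, which forms disulphide bonds in the ER, 9.13 and 8.97 with A347S and 10.22 and 10.09 with empty vector. The groups were separate in all 3. HILPDA, a lipid droplet protein, EPAS1, the HIF-2 alpha factor, and VEGFA, the angiogenic growth factor, fell by 0.80, 0.76 and 0.73, and HIF1A, named after its values were seen, by 0.65, a call lost under cyclic loess scaling or without the second A347S array. P4HA2, a collagen prolyl hydroxylase, was the 1 member that rose, by 0.69. After cyclic loess scaling there were 8 falls and 2 rises.

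Targets of ATF4, the factor that answers amino acid shortage, had 5 falls and 0 rises in 27 measured members. PYCR1, which completes proline synthesis, read 8.18 and 8.06 with A347S and 9.33 and 9.39 with empty vector. NUPR1, SLC1A4, SLC7A1 and TRIB3 fell by 1.04, 0.94, 0.85 and 0.83. In glutathione, NRF2 and pentose phosphate genes there were 7 falls and 1 rise in 28. TPMT and ABCC4, an exporter of organic anions, had the largest falls, of 1.61 and 1.09, followed by NQO2 (-0.77), UGDH (-0.75) and TKT (-0.64), and TXNRD1, a thioredoxin reductase, rose by 0.62. TKT lost its call under cyclic loess or quantile scaling and without the second A347S array. Polyamine metabolism had 3 falls and 0 rises in 14, with ODC1, the enzyme that makes putrescine, at 11.23 and 11.10 with A347S against 12.07 and 12.01 with empty vector, SAT1, which acetylates polyamines, at -0.90, and ADI1.

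TGF-beta and BMP signalling had 8 falls and 2 rises in 31 measured members. The receptor TGFBR1 read 6.99 and 6.82 with A347S and 8.30 and 8.29 with empty vector, 2.62-fold lower. SMAD2 and SMAD3, which carry the signal to the nucleus, read 7.85 and 7.71 with A347S and 8.85 and 8.83 with empty vector, and 9.30 and 9.11 with A347S and 10.01 and 9.97 with empty vector. Receptor and both receptor-regulated SMADs were thus lower on every A347S array, as was the BMP receptor BMPR2 (-0.85). SMAD4, the common partner, stood at -0.25 and the inhibitor SMAD7 at -0.13. The 2 rises were the ligand TGFB2, at 9.72 and 9.61 with A347S and 8.74 and 8.77 with empty vector, and BAMBI, a decoy receptor that dampens the pathway, at 7.21 and 7.16 with A347S and 5.94 and 5.62 with empty vector.

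In the EGF receptor and MAPK response, 6 of 29 measured members fell and 1 rose. The ligand HBEGF rose by 0.90, and ERRFI1 and SPRY2, feedback inhibitors of the receptor pathway, fell by 0.83 and 0.74. The transcription factors MYC and JUN fell by 0.80 and 0.68, and IER3 by 0.61. The second, dimmer cluster of IER3 stood at -0.57 and did not pass, and IER3 also lost its call without the second A347S array or the first empty vector array and under cyclic loess or quantile scaling. Notch and Wnt genes had 2 rises and 2 falls in 29, 6.9% each. Over all clusters with a mean signal between 7 and 8, 4.35% rose and 9.32% fell. The Wnt receptor FZD7 stood at -1.23, FZD3 at 0.71, the nuclear factor LEF1 at 0.63 and the inhibitor DKK1 at -0.63. DKK1 lost its call under cyclic loess scaling or without the second empty vector array, and LEF1 without the first A347S array. LEF1 read 4.25 and 4.23 with empty vector, below the olfactory receptor median of 4.4, so that the size of its change is uncertain.

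Insulin, PI3K and TOR signalling had 1 rise, of the kinase SGK1 (0.72), and 1 fall, of the PI3K subunit PIK3R1 (-0.76), in 27 measured members. Of 17 measured genes of monogenic diabetes and islet regulation, 0 rose and 0 fell by limma, and 4 passed on the adjusted p alone. Their changes lay between -0.47 and 0.37. KLF11 itself, which the study links to juvenile diabetes, was not counted among them. Their median empty vector signal was 6.5, and among clusters with a mean signal between 6 and 7, 3.48% rose and 3.78% fell. A count of 0 in 17 genes of this signal therefore says little.

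All called genes of both cilium lists were higher with A347S. Of 44 measured genes of the motile axoneme, 9 rose and 0 fell, and of 34 genes of intraflagellar transport and the BBSome, which carry cargo along the cilium, 8 rose and 0 fell, shares of 20.5% and 23.5% beside 3.63% over all clusters. These lists were drawn up with the largest rises known, and the leading genes of the first are among them. DNAI3, a dynein intermediate chain, read 7.29 and 6.96 with A347S and 4.90 and 5.0 with empty vector, CFAP69 read 6.74 and 6.63 with A347S and 4.49 and 4.66 with empty vector, and CFAP44 6.93 and 6.88 with A347S and 5.37 and 5.26 with empty vector. Empty vector signals of the axoneme list were low, with a median of 5.3, against 6.83 over all clusters.

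The transport genes were brighter, with a median of 7.5. ARL6, the GTPase that recruits the BBSome, read 8.73 and 8.81 with A347S and 7.45 and 7.42 with empty vector, and IFT20, which starts from the Golgi, 8.47 and 8.40 with A347S and 7.20 and 7.04 with empty vector. IFT80 read 10.59 and 10.51 with A347S and 9.46 and 9.56 with empty vector. The groups did not overlap in any of these 3. DYNC2LI1, of the dynein that moves cargo back to the base, rose by 0.84, BBS5 by 0.69 and BBS12 by 0.65, and BBS12 lost its call without the first empty vector array. The axonemal dynein heavy chains DNAH5, DNAH9 and DNAH11 stood at -0.15, -0.07 and 0.02 and did not pass. FOXJ1, the factor that switches on motile cilia, stood at 0.36, short of the fold threshold, and RFX3 at -0.05 (adjusted p = 0.795). After cyclic loess scaling 14 transport genes and 8 axoneme genes rose, and 0 fell.

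Called genes of cell division moved both ways. In G2/M and mitosis 12.5% rose and 9.4% fell, and in DNA replication 8.3% rose and 8.3% fell. The median empty vector signals of these lists were 9.7 and 9.6. Over all clusters with a mean signal between 9 and 10, 6.56% rose and 10.2% fell. In G2/M and mitosis, 4 of 32 measured members rose and 3 fell. PIMREG had the largest fall, and CDC25B, a phosphatase that starts mitosis, read 7.61 and 7.35 with A347S and 8.91 and 8.81 with empty vector. KIF20A, a kinesin of cytokinesis, read 10.42 and 10.33 with A347S and 9.35 and 9.28 with empty vector, and CENPE, ASPM and NEK2, which act at the kinetochore and spindle, rose by 0.96, 0.86 and 0.73. In DNA replication there were 4 rises and 4 falls in 48, with the pocket protein RBL1 (-1.13), ORC4 (-0.90), ORC2 (-0.68) and the polymerase POLE (-0.75) lower, and the helicase subunit GINS3 (0.99) and ORC5 (0.75) among those higher. ORC2 lost its call under cyclic loess or quantile scaling. The subunits ORC4 and ORC5 of the origin recognition complex thus moved in opposite directions.

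DNA repair and telomere genes had 5 rises and 3 falls in 37 measured members. RADX read 7.71 and 7.67 with A347S and 5.14 and 5.20 with empty vector, and the telomere protein TERF2IP 9.12 and 9.18 with A347S and 7.99 and 8.07 with empty vector. RAD51B and ERCC4 rose by 0.89 and 0.81, and the mismatch repair gene MSH6 and the glycosylase OGG1 fell by 0.99 and 0.83. Of 23 measured p53 targets 2 rose and 2 fell, 8.7% each. Over all clusters 4.35% rose and 9.32% fell at a mean signal between 7 and 8, and 6.09% and 12.2% between 8 and 9. The p53 targets called were PPM1D (0.82) and FAS (0.59), and CCNG1 (-0.67) and TIGAR (-0.65), while CDKN1A stood at -0.13. Without the second A347S array FAS, CCNG1 and TIGAR lost their calls, FAS also without the second empty vector array and TIGAR under cyclic loess or quantile scaling. In the nuclear lamina list, with 1 rise and 3 falls in 15, LMNA, LMNB1 and EMD, structural proteins of the envelope, fell by 0.76, 0.88 and 0.89, and HMGN5 read 7.91 and 7.80 with A347S against 5.51 and 5.70 with empty vector.

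Epithelial junctions and keratins had 6 falls and 0 rises in 23 measured members. KRT19 read 9.35 and 9.29 with A347S and 10.91 and 10.76 with empty vector, and CTNNA1, alpha-catenin of adherens junctions, 9.71 and 9.51 with A347S and 10.60 and 10.70 with empty vector. The polarity protein PARD6B and the tight junction genes CLDN7, CLDN4 and TJP1 fell by 0.83, 0.77, 0.74 and 0.70. Of 28 measured mesenchymal and matrix genes 0 rose and 4 fell, namely SPARC (-0.85), ITGA2 (-0.68), ITGB5 (-0.64) and TIMP1 (-0.64). ITGB5 and TIMP1 lost the fold threshold after cyclic loess scaling. The 14.3% of this list that fell stand beside 9.32% over all clusters with a mean signal between 7 and 8, and 12.2% between 8 and 9.

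The label of pancreatic epithelial cells was checked against marker genes. KRT8, KRT18, SOX9, EPCAM and MUC1 had mean signals of 12.26, 12.92, 8.18, 8.55 and 7.97 with A347S and 12.68, 13.17, 8.44, 8.46 and 8.06 with empty vector, whereas CDH1, the epithelial cadherin, stood at 4.82 with A347S and 4.98 with empty vector, and CFTR at 3.88 with A347S and 3.85 with empty vector, near the low end of the array. Of the duct markers 1 of 9 measured fell, KRT19, and their summed linear signal was 13900 to 14800 with A347S and 18300 to 19300 with empty vector. That sum comes mostly from KRT18 and KRT8, which changed by -0.25 and -0.43, short of the fold threshold. A dimmer cluster of KRT18, with a mean signal of 11.52 over all arrays, stood at -0.33, and one of EPCAM, with 7.96, at -0.04. Whether the brighter clusters of these genes read the genes themselves or near-identical copies was not tested. Acinar, islet, fibroblast, endothelial and leukocyte markers had 0 calls in 5, 5, 7, 5 and 5 measured members. Their summed linear signals were 341 to 364, 236 to 242, 571 to 580, 154 to 157 and 870 to 893 with A347S, and 339 to 352, 195 to 210, 616 to 660, 148 to 152 and 953 to 989 with empty vector, and the leukocyte sum comes mostly from CD68, which other cells also express.

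The lysosome list moved in both directions, with 7 rises and 5 falls in 30 measured members. MCOLN1, a calcium channel of the lysosome, read 9.23 and 9.28 with A347S and 7.94 and 7.88 with empty vector, and the alpha-galactosidase GLA 10.56 and 10.67 with A347S and 9.48 and 9.46 with empty vector. The fucosidase FUCA1 rose by 1.02 and the proton pump subunit ATP6V1D by 0.98, whereas NPC2, which carries cholesterol out of lysosomes, and GM2A, a cofactor of ganglioside breakdown, fell by 1.05 and 1.0. In ER folding there were 3 rises and 1 fall in 22, with ERO1B, ATF6 and SEL1L higher by 0.91, 0.64 and 0.63 and the chaperone HYOU1 lower by 0.99. ATF6 lost its call without the first empty vector array and SEL1L without the second. ERO1B and its paralog ERO1A (-1.10), which is counted in the hypoxia list and not in this one, therefore moved in opposite directions. ER to Golgi transport had 3 rises and 4 falls in 28, among them SEC24A (1.04), SEC22B (0.82) and SAR1B (0.64), and ERGIC1 (-1.14), KDELR3 (-0.76) and SEC23A (-0.76).

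The circadian clock had 2 rises and 5 falls in 19 measured members. BMAL1, the activator at its centre, read 4.69 and 4.59 with A347S and 5.99 and 5.81 with empty vector, and CRY1, a repressor of that activator, 10.01 and 10.02 with A347S and 8.79 and 8.84 with empty vector. NFIL3, NPAS2 and CSNK1D fell by 1.23, 0.76 and 0.62, and NOCT rose by 0.74, though not without the first empty vector array. CSNK1D lost its call under cyclic loess scaling or without the second A347S array. Nuclear receptors and coregulators had 4 falls and 0 rises in 25, namely NCOA2 (-1.07), NR2F6 (-0.73), NCOA1 (-0.64) and PPARG (-0.61), of which NCOA1 and PPARG lost their calls under cyclic loess or quantile scaling and without the second A347S array.

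Of 26 measured cytosolic ribosomal proteins 0 rose and 0 fell, with a median of 0.04 and 1 gene at an adjusted p under 0.05. Of 31 proteasome genes 0 rose and 1 fell, USP14 (-0.75). RNA polymerase I and the nucleolus had 2 rises, POLR1C (0.70) and TAF1A (0.60), and 1 fall, UBTF (-0.65), in 25. Shares of 8% and 4% stand beside 6.56% and 10.2% over all clusters with a mean signal between 9 and 10. UBTF lost its call under cyclic loess or quantile scaling and without the second A347S array, and TAF1A without the first array of A347S or of empty vector. In the interferon response 2 of 29 rose, SAMHD1 and SLFN5, a member of the Schlafen family at 6.98 and 7.25 with A347S against 5.08 and 5.54 with empty vector, and 0 fell.

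**Figure D4:**
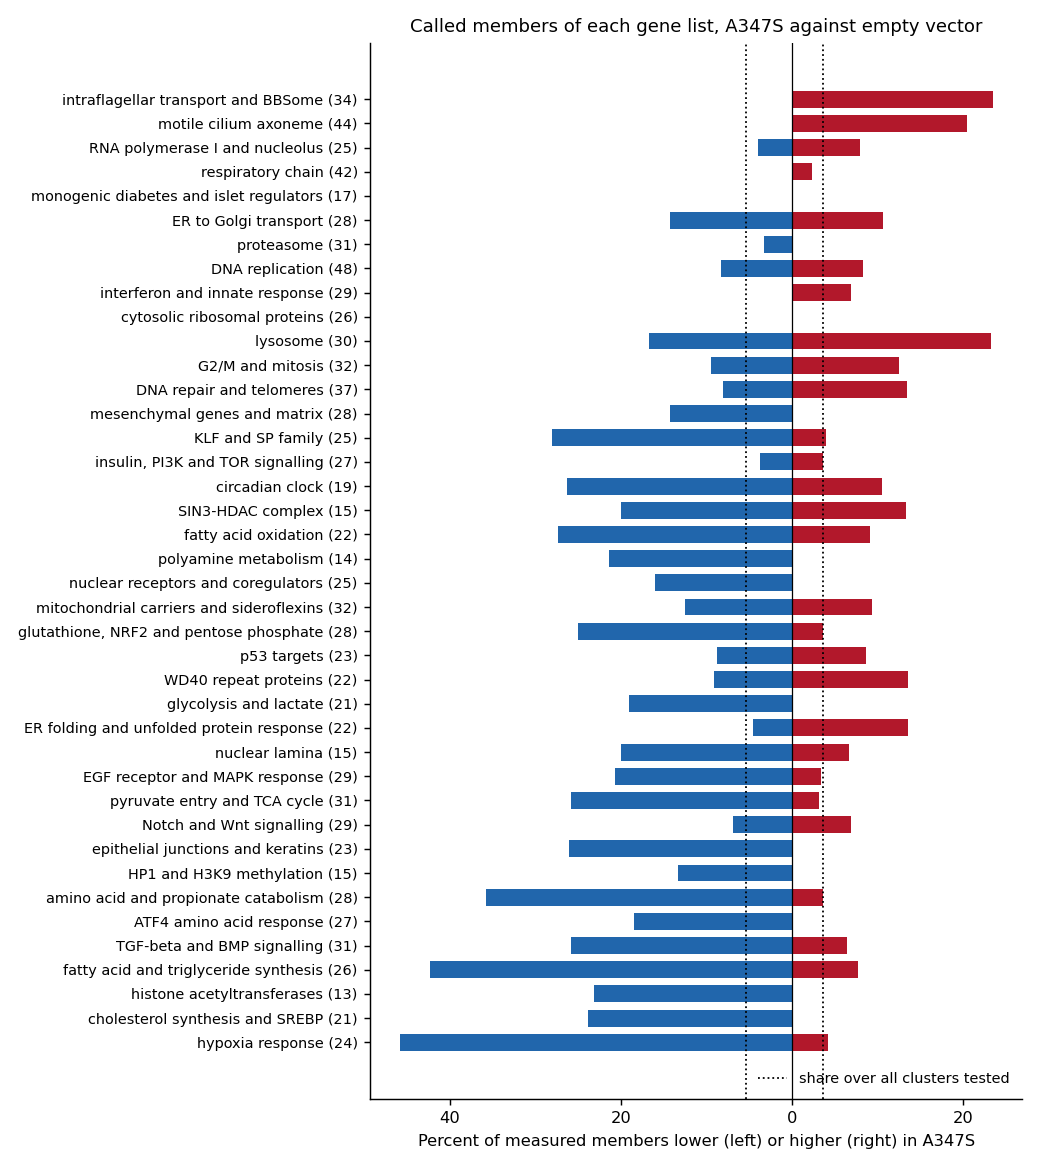
Percent of the measured members of each gene list that fell (blue, left) or rose (red, right) in A347S relative to empty vector, with the number measured in parentheses, lists ordered by median change and dotted lines at the shares over all clusters, 5.35% and 3.63%. The ciliary lists have rises and no falls, and the hypoxia and fatty acid synthesis lists have the longest bars for falls, with 45.8% and 42.3%. The shares differ with signal: among clusters with a mean signal between 8 and 9, 12.2% fell and 6.09% rose.

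A class of genes that no list held was noticed after the values were seen. Of 493 ZNF genes, which code for zinc finger proteins and many of which repress transposable elements, 66 rose and 11 fell, 13.4% and 2.23%, and 62.3% had a change above 0. After cyclic loess scaling 79 rose and 10 fell. ZNF204P, a pseudogene of this class, read 6.41 and 6.34 with A347S and 3.82 and 4.33 with empty vector. ZNF genes resemble each other, so that their probes can cross-hybridize, and the class was given no test because it was picked from the data. Of 37 CEP genes, which code for centrosomal proteins, 9 rose and 1 fell. Of 19 measured aldehyde dehydrogenase genes 0 rose and 5 fell, and of 359 olfactory receptor genes 1 rose and 0 fell.

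Whether A347S differed from the other constructs was tested directly, array group against array group, without passing through empty vector. Between A347S and wild type KLF11 the call count by limma was 0 (0%), and 3017 clusters had a p under 0.05 before adjustment. ACADSB, CXCR4 and SPACA4 were among the genes with the smallest p-values. ACADSB, which oxidizes short branched acyl-CoA, read 9.25 and 9.23 with A347S, 8.23 and 7.98 with wild type KLF11 and 8.68 and 8.70 with empty vector, so that A347S was higher than the wild type by 1.13 (adjusted p = 0.063). CXCR4, a chemokine receptor, and the sperm protein SPACA4 were higher by 0.78 and 0.94 (adjusted p = 0.063 for both). SPACA4 read 4.45 and 4.53 with empty vector and changed from there by -0.37 with wild type KLF11. Such signals lie near the olfactory receptor median of 4.4, so that the size of the SPACA4 difference is uncertain. IDH1 stood lower than with the wild type by 0.67, with the same adjusted p of 0.063. With a variance trend and robust moderation 23 clusters were called, 16 higher and 7 lower with A347S.

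Between A347S and Δ486 the call count was likewise 0 (0%), and 1557 clusters had a p under 0.05 before adjustment, while the lowest adjusted p was 0.157, for a dimmer cluster of the pseudogene FAM86B3P (-0.69). Among the brightest clusters of the genes, CDH24, a cadherin, BCO2, which cleaves carotenoids, and CILP, a cartilage matrix protein, had the smallest p-values, with differences of -0.44, 0.47 and 0.69 (adjusted p = 0.642 for each). A count of 0 does not show that the proteins act alike.

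Against EAPP, A347S had 1260 called clusters, 6.01% of those tested, with 643 higher (3.07%) and 617 lower (2.94%). After cyclic loess scaling these were 779 and 455, so that 63.1% were higher, against 51.0% in the deposited values. Large differences upward were those of RFPL4A, KIAA0825, LMBRD2 and DNAI3, at 2.31, 2.19, 2.16 and 2.10. ZNF204P differed by 2.87, but read 3.56 and 3.46 with EAPP, below the olfactory receptor median of 4.4, so that the size of its difference is uncertain. The largest downward were those of BDH1, SFXN2, PIMREG, IDH1 and EPB41, a protein of the membrane skeleton, at -2.17, -1.94, -1.66, -1.65 and -1.51. BDH1 read 5.99 and 6.01 with A347S, 8.06 and 8.27 with EAPP and 7.03 and 6.92 with empty vector, so that the mutants lay on opposite sides of empty vector, and BDH1 was the 1 cluster called between EAPP and empty vector (1.19, adjusted p = 0.0127). SFXN2 read 6.39 and 6.21 with A347S and 8.22 and 8.27 with EAPP, which was near its empty vector level of 8.25 and 8.20.

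For the genes with the largest A347S changes, the changes against empty vector with the other constructs are set side by side. By the same thresholds wild type KLF11 changed 3.99% of all clusters (2.21% higher, 1.78% lower), Δ486 5.61% (2.38% higher, 3.23% lower) and EAPP 0.00477%, which is 1 cluster. All constructs share the empty vector arrays, and the genes were chosen for A347S, which favours A347S in any ranking. IDH1 changed by -2.10 with A347S, -1.43 with wild type KLF11, -1.78 with Δ486 and -0.45 with EAPP. DNAJB4 changed by 2.64 with A347S, 2.28 with wild type KLF11, 2.17 with Δ486 and 0.68 with EAPP. MPC1 changed by -1.44 with A347S, -1.65 with wild type KLF11, -1.24 with Δ486 and -0.75 with EAPP. MPC1 is thus a gene whose change was not larger with A347S than with the wild type, and the difference of 0.21 between them did not pass (adjusted p = 0.503). For ROPN1L the values were 2.51 with A347S, 1.97 with wild type KLF11, 2.45 with Δ486 and 0.51 with EAPP.

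**Figure D5:**
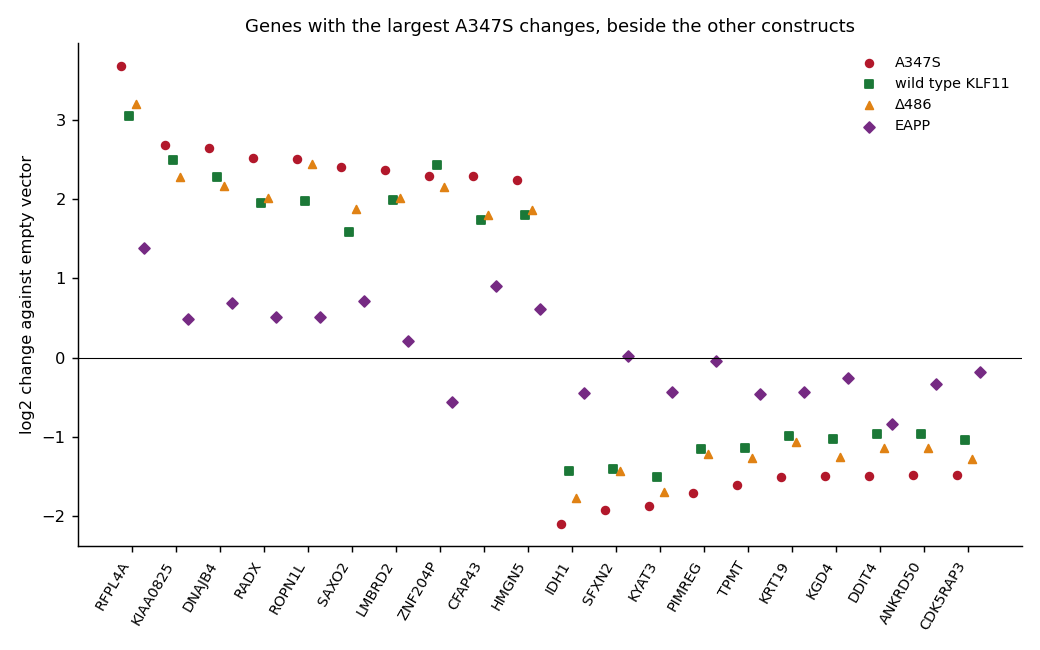
Change against empty vector (log2) with A347S (red circles), wild type KLF11 (green squares), Δ486 (orange triangles) and EAPP (purple diamonds) for the 10 largest rises and 10 largest falls of A347S. The genes were chosen by their A347S change, and the highest EAPP point is that of RFPL4A, at 1.38.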

How the data were processed

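RNA of the Panc1 cultures was hybridized to Affymetrix Human Gene 1.0 ST arrays, and the deposited values are log2 expression per transcript cluster, which the authors obtained with robust multichip averaging (RMA). Partek 6.6 is named in the submitters' processing notes, and no genome build is given there. Genes were named from the platform annotation, in which 19229 of 28869 clusters had 1 symbol, 1732 had several and 7908 had none, and the brightest cluster stood for a gene that had more than 1. The 20961 clusters with a symbol were fitted over all 10 arrays in 5 groups with limma 3.58.1 in R 4.3.3 (5 residual degrees of freedom), with a fold threshold of 1.5 and a Benjamini-Hochberg adjusted p under 0.05. The median on each array lay between 6.81 and 6.87, and the number of arrays limits the precision.

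The genes named were KLF11, the 10 largest rises and falls, the same among clusters of mean signal of at least 9, up to 6 called members of each list with others needed to say what did not pass, and the leading genes of the direct comparisons. The largest rises and falls were taken from called clusters in which the arrays of the 2 groups did not overlap. The members and lists were chosen with earlier results of these data known. In simulated data for A347S against empty vector with 200 of 20961 clusters changed, the procedure recovered 53.5% of 1.5-fold, 98.5% of 2-fold and 100% of 3-fold changes. Alternatives covered scaling, thresholds, moderation, dim clusters, the arrays fitted, the replicate number as a block and leaving out each array.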

Additional observations from a re-analysis of the deposited data

Results flagged for a closer look

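Clusters without a gene symbol took no part in the comparison above. Of these 7908 clusters, 159 passed the same thresholds between A347S and empty vector (2.01%), with 67 higher and 92 lower and changes between -2.29 and 1.95. They were singled out because they are a signal outside the clusters analysed. Which transcripts they read is not given in the annotation used here.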

How the results depend on the processing

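Without the fold threshold, 5946 clusters passed between A347S and empty vector (2410 higher, 3536 lower) and 4899 between A347S and EAPP (2041 higher, 2858 lower). With an absolute log2 change of at least 1.5, 62 remained against empty vector, 55 higher and 7 lower. With a plain t-test of 2 against 2 arrays after Benjamini-Hochberg adjustment, without the Bayes correction of the methods, 0 passed in either direction, against 1739 before adjustment. Against wild type KLF11, where limma called 0, there were 38 by p before adjustment and fold (30 higher, 8 lower) and 23 with a variance trend and robust moderation (16 higher, 7 lower). Against Δ486 there were 22 by p before adjustment and fold (15 higher, 7 lower). Leaving out 1 array at a time gave 1663 to 2229 calls against empty vector (748 to 817 higher, 915 to 1412 lower), with the lowest without the second A347S array and the highest without the first. Against EAPP it gave 1136 to 1488 calls (587 to 820 higher, 482 to 819 lower), and 0 throughout against wild type KLF11 and Δ486.

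The array numbers are not known to pair the arrays: the deviations of the first A347S and empty vector arrays from their group means correlated at 0.06 over 20961 clusters. With the array number as a replicate block, 1883 clusters passed against empty vector, 1260 against EAPP, 1 against wild type KLF11, which was higher with A347S, and 0 against Δ486.

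Over the 253 named genes, 0 of 6306 values under the alternatives changed sign among those called, 503 no longer passed and 17 newly passed. Of 230 alternative list medians, 83 moved by more than the spread between arrays. The duplicates of pooled RNA limit what these errors cover.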
